A study of Mus musculus with 28 samples.

Results

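The RNA of testis (XY) primordial germ cells (PGCs, the embryonic precursors of sperm) lacking Setdb1 was compared with that of heterozygous controls in E13.5 mouse embryos. The comparison takes 6 of the series' 28 samples: 2 KO libraries (Setdb1 delta/-) and 4 Het libraries, made up of 2 Het1 (delta/+) and 2 Het2 (flox/-). All 4 Het libraries therefore carry 1 deleted or null allele as well. A single wild-type (WT, flox/+) library of the same sex served only as a reference, and XY PGC and gonadal soma libraries of C57BL/6 mice, 1 each, show the levels outside the cross. PGCs were the SSEA1+ and soma the SSEA1- cells of sorted gonads. The labels name neither the driver of the deletion nor the number of embryos behind a library, so p-values measure the spread between libraries, which may be technical.

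SETDB1 is a histone methyltransferase that places trimethylation on lysine 9 of histone H3 (H3K9me3), a mark of silent chromatin. It is brought to its targets mainly by KRAB zinc finger proteins through the corepressor TRIM28, and it is known for silencing endogenous retroviruses, the remnants of retroviral insertions flanked by long terminal repeats (LTRs). PGCs erase most of their DNA methylation on the way to the gonad, so that other silencing marks are of interest in these cells.

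Levels are given as deposited in RPKM, read numbers divided by gene length and library size, so that they can be compared between genes. The number of reads behind a value is not known. Where 4 Het values follow one another, their order is Het1 replicates 1 and 2, then Het2 replicates 1 and 2, and KO values are in the order replicate 1, replicate 2. A gene was called when limma on log2(RPKM + 1) gave a Benjamini-Hochberg adjusted p below 0.05 over all genes tested, and fold sizes below are differences on that log2 scale, which understates the change of low genes. Adjusted p-values in the text are from limma.

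The 6 libraries resembled each other, with mean rank correlations over tested genes of 0.955 to 0.974 with the other XY libraries, lowest in Het1 replicate 1. KO replicate 1 listed 17371 genes above 0 and KO replicate 2 listed 16538, against 15909 to 16313 in Het. The 7 germ cell markers, such as Ddx4 and Dazl, summed to 1884 to 2308 RPKM in Het and to 1984 and 2184 RPKM in KO, against 14.9 RPKM in soma, which fits the label of the cells. Setdb1 itself was read at 49.0, 37.5, 45.8 and 52.1 RPKM in Het and at 27.1 and 31.2 RPKM in KO. Both KO values lay below every Het value, but the log2 difference of -0.64 (SE 0.18) did not pass (adjusted p = 0.322). The labels do not say which exons the deletion removes, and a value per gene cannot show it.

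Loss of Setdb1 in XY germ cells went with higher RNA from a small set of mostly silent genes. Of 13518 genes tested, 83 were higher in KO, which is 0.614% of them, and 0 were lower (512 higher and 103 lower at an unadjusted p under 0.05 in limma). The called genes include lipoxygenases, kallikreins, 2-cell stage genes, complement components, paired immune receptors, steroid enzymes and Y-linked genes. Their log2 differences ran from 0.94 to 5.87 with a median of 1.83, where the median of all genes tested was 0.03. In each of the 83 the lower KO library exceeded the highest Het library, an order that 9.01% of tested genes showed. The opposite order, both KO below all Het, was seen in 4.13%.

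Most of these genes had little or no RNA in the controls. In 58 of the 83 no Het library reached 1 RPKM, and 18 were listed at 0 in all 4 Het libraries. Only 17 averaged 1 RPKM or more in Het. The levels reached were modest too, with a median KO mean of 4.31 RPKM, and 16 genes averaged 10 RPKM or more. The plot of differences against control level shows this crowding at the low end. The filter of 1 RPKM in 2 of 12 libraries was passed by 42 of the 83 only through the XY KO libraries, so a gene of that kind had to differ to be tested at all. The WT library lay below both KO libraries in 82 of the 83, the exception being Hsd3b1, and the C57BL/6 PGC library did so in all 83. The WT value was above the Het range in 16. For these WT and C57BL/6 counts the share over all genes was not computed. The 83 were picked for high KO values, so the counts are a description and no support.

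**Figure D1:**
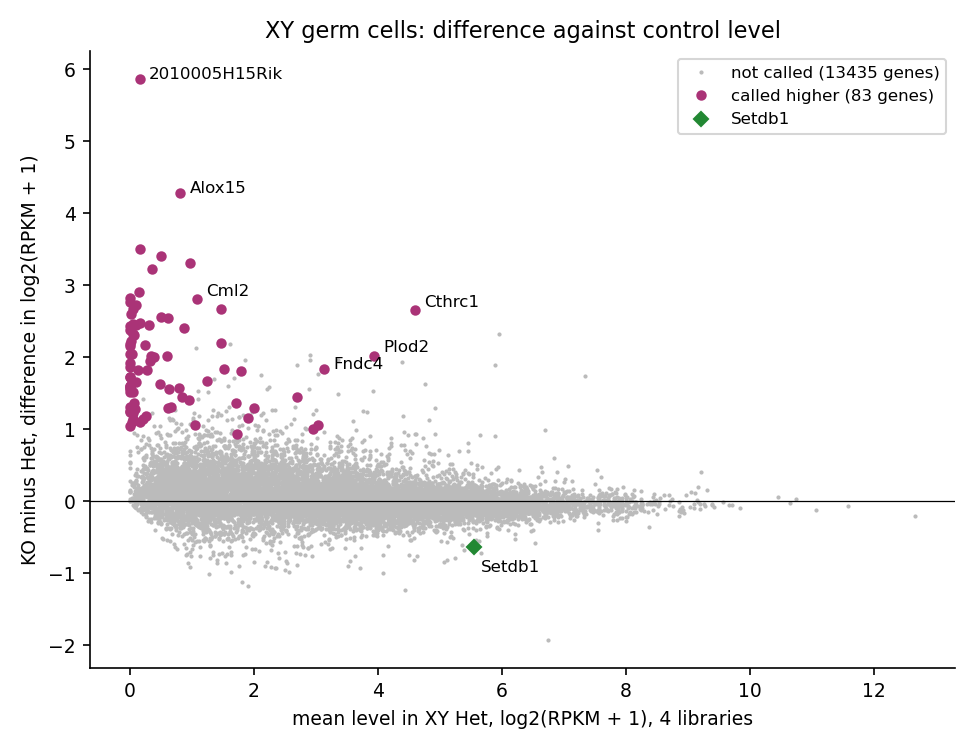
Each point is 1 of the 13518 genes tested, with its mean XY Het level as log2(RPKM + 1) on the x axis and the KO minus Het difference in log2(RPKM + 1) on the y axis. The 83 called genes (purple) lie mostly at the left edge, with Cthrc1, Plod2 and Fndc4 as called genes of higher control level, and Setdb1 (green diamond) lies below 0.

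The largest difference belonged to 2010005H15Rik, a gene of the stefin (cystatin A) family of cysteine protease inhibitors. It was listed at 0, 0, 0.48 and 0 RPKM in Het and at 57.7 and 69.5 RPKM in KO, a log2 difference of 5.87 (SE 0.23, adjusted p = 2.75e-08). It was thus silent in nearly all controls and among the stronger transcripts of the called set in both KO libraries. WT, C57BL/6 PGC and soma libraries listed it at 0. Csta, another stefin, went from at most 0.08 RPKM in Het to 1.47 and 1.52 RPKM (1.29, adjusted p = 0.00135), while the third tested stefin, Cstb, stood at 14.4 to 20.1 RPKM in Het and 19.9 and 19.4 RPKM in KO without passing (0.29).

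Lipoxygenases, enzymes that add oxygen to arachidonic acid and related lipids, gave the next largest. Alox15 stood at 0.65, 1.68, 0.37 and 0.34 RPKM in Het and at 27.7 and 36.7 RPKM in KO (log2 difference 4.28, SE 0.29, adjusted p = 1.3e-05). Its neighbour Alox12e stood at 0.57, 0.35, 0.68 and 0.44 RPKM in Het and at 4.3 and 6.01 RPKM in KO (2.02, SE 0.19, adjusted p = 7.76e-05). No Het library came near a KO library for either gene. Of the 8 genes listed for this family only these 2 were tested. The rest stayed low in every XY library, among them Alox12, which lies next to Alox12e on the other side, at 0 to 0.25 RPKM in Het and 0.06 and 0.03 RPKM in KO. Pelp1, the next gene beyond Alox15, did not pass either (0.12, adjusted p = 1).

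Such neighbouring pairs recurred. With the order of protein-coding genes taken from RefSeq (GRCm38.p6), 76 of the 83 genes could be placed, and 16 of them had another called gene within 3 places. Besides the lipoxygenases these were Pilrb1 with Pilrb2, Zscan4b with Zscan4c and Zscan4d, Klk1b24 with Klk1b3 and Klk1, Dub3 with Dub1, C6 with C7, and Jph1 with Crispld1. Apart from Jph1 and Crispld1, the members of each group belong to 1 gene family. The share of all genes with such a neighbour was not computed, so the count of 16 is a description. How reads that fit several copies were assigned is not given in the sources used here, so the split of RNA between copies is uncertain.

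Promoter sequences are shown for 2 such pairs of copies, since their letters show how alike the starts of the pairs are, and for Cml2 and Zfp560, whose promoters lost H3K9me3 (below). They are the 250 bases before the annotated start from RefSeq, build GRCm38.p6, written 5′ to 3′ on the gene's own strand, with CG dinucleotides, the sites of DNA methylation, in capitals. RefSeq starts may differ from the Ensembl starts behind the deposited mm9 values. The positions are chr7:11005495-11005744 (plus strand) for Zscan4c, chr7:11166149-11166398 (minus strand) for Zscan4d, chr5:137858050-137858299 (minus strand) for Pilrb1 and chr5:137871759-137872008 (minus strand) for Pilrb2. Cml2, now named Nat8f2, has chr6:85869138-85869387 (minus strand), and Zfp560 has chr9:20385159-20385408 (minus strand).
Zscan4c: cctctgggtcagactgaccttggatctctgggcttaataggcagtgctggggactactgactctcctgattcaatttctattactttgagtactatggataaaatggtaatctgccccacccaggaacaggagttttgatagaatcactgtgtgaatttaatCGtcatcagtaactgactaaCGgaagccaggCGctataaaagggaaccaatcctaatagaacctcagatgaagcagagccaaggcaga
Zscan4d: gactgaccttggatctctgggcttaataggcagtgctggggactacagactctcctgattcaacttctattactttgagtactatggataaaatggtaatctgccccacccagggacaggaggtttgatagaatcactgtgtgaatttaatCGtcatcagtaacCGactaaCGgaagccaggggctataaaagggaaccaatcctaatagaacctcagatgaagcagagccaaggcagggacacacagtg
Pilrb1: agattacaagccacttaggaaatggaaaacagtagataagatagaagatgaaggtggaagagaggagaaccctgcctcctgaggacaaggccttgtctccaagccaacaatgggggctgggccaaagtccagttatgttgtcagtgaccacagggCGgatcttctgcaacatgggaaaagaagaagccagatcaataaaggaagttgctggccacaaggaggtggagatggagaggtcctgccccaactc
Pilrb2: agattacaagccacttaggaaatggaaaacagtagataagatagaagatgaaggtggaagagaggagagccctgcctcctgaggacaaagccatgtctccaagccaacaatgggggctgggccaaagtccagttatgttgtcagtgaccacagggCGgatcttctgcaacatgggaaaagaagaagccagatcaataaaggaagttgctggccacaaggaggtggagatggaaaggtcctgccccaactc
Cml2: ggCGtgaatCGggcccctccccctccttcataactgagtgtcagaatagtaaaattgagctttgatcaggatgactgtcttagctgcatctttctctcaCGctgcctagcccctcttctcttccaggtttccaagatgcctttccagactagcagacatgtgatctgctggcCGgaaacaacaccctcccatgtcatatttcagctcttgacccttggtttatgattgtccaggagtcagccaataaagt
Zfp560: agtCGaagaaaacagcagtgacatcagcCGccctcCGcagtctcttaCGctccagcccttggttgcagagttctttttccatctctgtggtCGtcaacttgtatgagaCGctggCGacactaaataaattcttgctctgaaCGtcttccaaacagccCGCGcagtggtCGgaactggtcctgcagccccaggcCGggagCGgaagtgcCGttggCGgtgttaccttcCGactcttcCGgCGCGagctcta

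The windows of Pilrb1 and Pilrb2 were identical at 98.4% of 250 aligned positions, and those of Zscan4c and Zscan4d at 89.3% of 261. The neighbours Klk1b3 and Klk1b24 reached 66.9% of 281, where Cml2 and Zfp560, which are of different families, reached 49.0% of 294. CG dinucleotides were few: 1 in each Pilrb window, 3 in each Zscan4 window and 4 in that of Cml2, against 19 in that of Zfp560. A RefSeq promoter was found for 56 of the 83 genes. Their median was 3 CG per 250 bases, against 6 over 27025 promoters, and 57.1% of them held 3 or fewer, against 38.1% of all. The motif TATAAA, searched on both strands, was in 13 of the 56 (23.2%, against 12.97% of all promoters), among them Zscan4b, Zscan4c, Zscan4d, Ren1 and Mmp10. CACGTG was in 1 of 56 (all promoters: 6.05%), GGCGGGA in 2 (9.76%) and TGCCGC in 1 (8.59%), all 3 searched on both strands. A match describes these windows and is not a binding site. Promoters of genes equally low in the controls were not compared. These shares therefore do not set the called genes apart from silent genes in general, and the Zscan4 copies count separately.

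Genes of the 2-cell embryo formed a further group. Zscan4 genes encode zinc finger proteins known from the 2-cell stage and from a rare state of embryonic stem cells, and Dub (Usp17) genes encode deubiquitinating enzymes. Zscan4d was listed at 0 in all 4 Het libraries and at 9.23 and 3.49 RPKM in KO (log2 difference 2.76, SE 0.28, adjusted p = 1.66e-04). Dub3 stood at 0.47, 0, 0 and 0 RPKM in Het and at 20.6 and 6.19 RPKM in KO (3.50, SE 0.36, adjusted p = 1.72e-04). KO replicate 1 was the higher library for both. Zscan4b, Zscan4c and Zscan4e reached 3.41 to 4.52 RPKM in KO replicate 1 and 1.21 to 1.46 RPKM in KO replicate 2, with Het values of 0 to 0.01 RPKM (log2 differences 1.72 to 1.86, adjusted p = 0.00217 to 0.0118), and Dub1 reached 3.12 and 1.14 RPKM (1.52, adjusted p = 0.00623). Of a list of 24 such genes 7 were tested and 6 called (all genes: 0.614%), but Zscan4b, Zscan4c and Zscan4e entered the test only through the XY KO libraries, so the count is a description and no support. Arg2 was not called (0.33). Of the untested ones Zscan4f was at 0.86 and 0.61 RPKM and Gm4340 at 0.82 and 0.5 RPKM in KO, both listed at 0 in Het. Usp17l5, of the Dub family but not on that list, rose from 0 to 1.45 and 1.33 RPKM (1.26, adjusted p = 0.00193). MERVL-int, the retrovirus family known to be active at the 2-cell stage, was higher in KO by 0.67 but did not pass (adjusted p = 0.389).

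**Figure D2:**
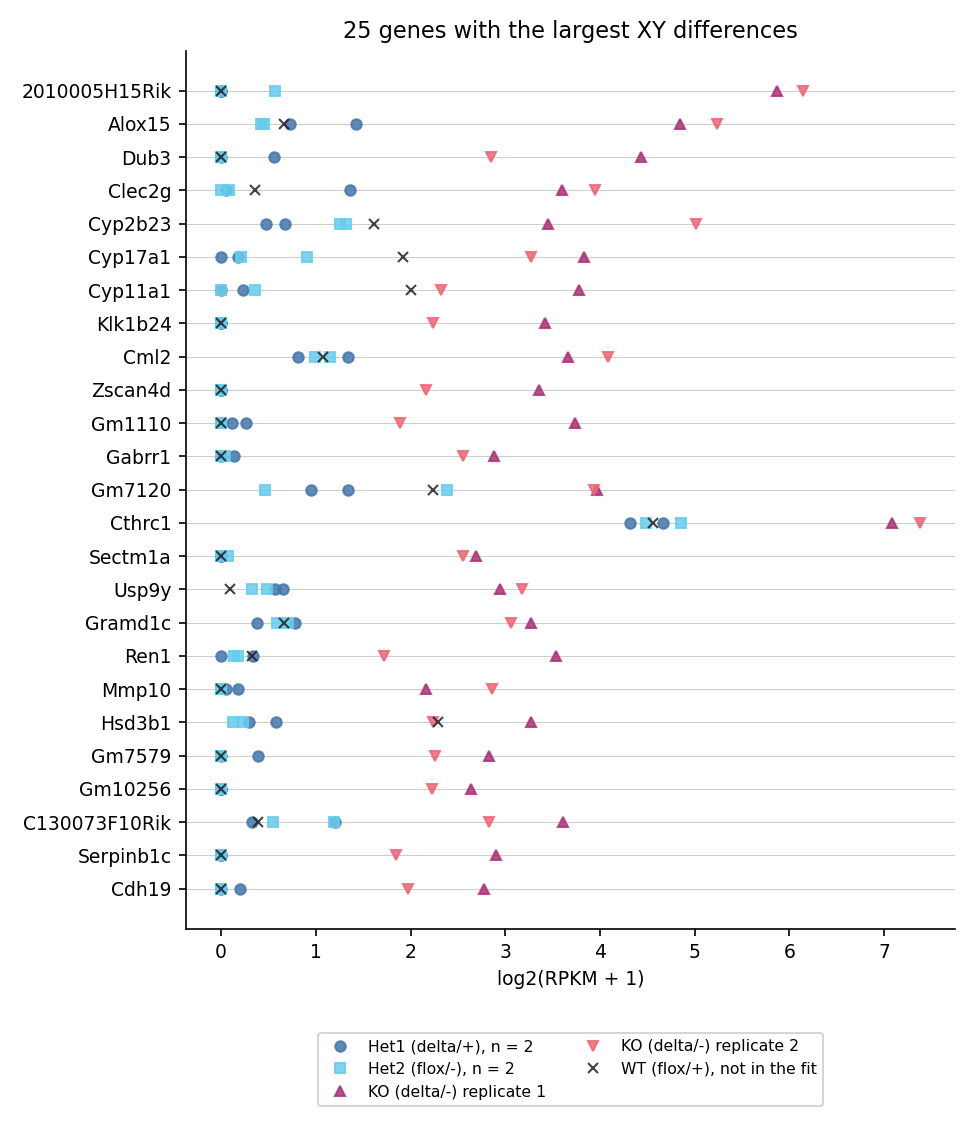
Each row is 1 of the 25 called genes with the largest differences, and each symbol is the log2(RPKM + 1) of 1 XY library (blue for Het1 and Het2, purple and red for KO replicates 1 and 2, a cross for WT). In every row both KO libraries lie to the right of all 4 Het libraries, and the WT library lies among or near the Het libraries except for the steroid enzymes Cyp17a1, Cyp11a1 and Hsd3b1.

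Glandular kallikreins are secreted serine proteases of a tight gene cluster. Klk1b24 was listed at 0 in all Het libraries and at 9.69 and 3.70 RPKM in KO (2.83, SE 0.26, adjusted p = 7.74e-05). Klk1b3 stood at 0, 0.74, 0.19 and 0.11 RPKM in Het and 3.63 and 3.84 RPKM in KO (1.94, adjusted p = 6.95e-04), and Klk1 at 1.70, 1.26, 1.32 and 3.21 RPKM in Het and 9.28 and 8.46 RPKM in KO (1.83, adjusted p = 0.00162). The rise took in members lying within the cluster but not all of it. Klk1b22 did not pass (0.21), and the remaining 10 listed members were not tested, Klk1b4 and Klk1b5 between Klk1b3 and Klk1 reaching at most 0.82 RPKM in any of the 6 libraries.

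Receptor and lectin genes of the immune system were also in the set. Pilrb1 and Pilrb2 encode activating members of the paired immunoglobulin-like receptors and Clec2g a C-type lectin-like protein. Pilrb1 was listed at 0 in Het and at 2.97 and 2.61 RPKM in KO (1.92, SE 0.18, adjusted p = 8.05e-05). Pilrb2 was at 0, 0.12, 0 and 0 RPKM in Het and 2.57 and 4.01 RPKM in KO (2.04, adjusted p = 7.18e-05). Their inhibitory partner Pilra, which lies next to them, was at 12.04 to 18.4 RPKM in Het and at 15.5 and 15.8 RPKM in KO, a difference of 0.13 that did not pass. Clec2g stood at 1.56, 0.04, 0.06 and 0 RPKM in Het and at 11.1 and 14.5 RPKM in KO (3.40, adjusted p = 1.5e-04). Clec2d (0.15) and Clec2l (0.04) did not pass. Of the complement system, C6 and C7, parts of the membrane attack complex, rose from at most 0.11 RPKM in any Het library. C6 reached 3.92 and 3.56 RPKM (2.22, adjusted p = 1.42e-05) and C7 1.18 and 1.23 RPKM (1.10, adjusted p = 0.00448). The Toll-like receptor gene Tlr2 also rose (0.06 to 1.07 RPKM in Het, 3.67 and 4.33 RPKM in KO, adjusted p = 0.01).

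Metabolic and secreted enzymes made up another share of the set. Cyp2b23, a cytochrome P450, stood at 0.39, 0.60, 1.5 and 1.38 RPKM in Het and at 9.97 and 31.3 RPKM in KO (3.30, SE 0.49, adjusted p = 0.00443). KO replicate 2 was more than 3 times as high as replicate 1 for this gene, and without it the call was lost (2.52, adjusted p = 0.203). Cml2, a camello-like acetyltransferase gene, was at 1.53, 0.76, 0.99 and 1.22 RPKM in Het and at 11.7 and 16.0 RPKM in KO (2.80, SE 0.23, adjusted p = 3.65e-05). Mmp10, a matrix-degrading protease gene, was at most 0.13 RPKM in Het and 3.48 and 6.28 RPKM in KO (2.46, adjusted p = 8.05e-05). It was the 1 called gene among 9 tested metalloproteinases (all genes: 0.614%). As Mmp10 entered the test only through the XY KO libraries, this count is a description. Gabrr1, the rho subunit gene of GABA receptors, was at 0, 0.10, 0.03 and 0 RPKM in Het and at 6.36 and 4.86 RPKM in KO (2.67, adjusted p = 3.65e-05). None of the other 5 tested GABA-A subunit genes passed (all genes called: 0.614%). The axonemal dynein gene Dnahc6 rose from 0.04 to 0.17 RPKM in Het to 4.28 and 1.84 RPKM (1.83, adjusted p = 0.00103). In the list of cilium and flagellum genes Dnahc6 was the called one of 13 tested (all genes: 0.614%). Efhc2 had the largest difference of the list, from 1.39 to 3.04 RPKM in Het to 11.9 and 13.2 RPKM in KO, without passing (2.18, adjusted p = 0.122). Ttc18, now named Cfap70 for cilia and flagella, is not on that list and rose from 0.27 to 0.36 RPKM in Het to a mean of 4.44 RPKM in KO (2.0, adjusted p = 0.00216). Of the remaining genes in the plot of the 25 largest differences, Gm1110, Gm7120, Sectm1a, Gramd1c, Gm7579, Gm10256, C130073F10Rik, Serpinb1c and Cdh19 had differences of 2.33 to 2.72, with adjusted p between 1.38e-05 and 0.0199. The calls of Gm7120 and C130073F10Rik were lost without either KO library (adjusted p = 0.309 to 0.461 and, for C130073F10Rik without replicate 2, 0.0621), and that of Gm7120 also without Het1 replicate 2 (0.0664).

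A minority of the called genes was already active in the controls. Cthrc1, which encodes a secreted collagen triple helix repeat protein, was the strongest, at 24.4, 18.9, 28.1 and 21.5 RPKM in Het and 134.6 and 165.3 RPKM in KO. That is 6.46 times the Het mean (2.65, SE 0.34, adjusted p = 0.00133), and WT, at 22.7 RPKM, lay within the Het range. Without KO replicate 2 the difference was 2.50 and no longer passed (adjusted p = 0.0539). Plod2, a lysyl hydroxylase that modifies collagen, went from 18.5, 13.6, 12.8 and 12.6 RPKM to 54.4 and 67.6 RPKM, 4.24 times the Het mean (2.02, SE 0.17, adjusted p = 3.65e-05). Fndc4, a fibronectin domain protein gene, went from 6.90, 8.37, 7.02 and 8.81 RPKM to 25.2 and 35.9 RPKM (1.83, SE 0.19, adjusted p = 2.33e-04). These genes rose from an ordinary level without overlap of the groups. The zinc finger genes Zbtb39 (6.05 to 8.11 RPKM in Het, 15.3 and 16.9 RPKM in KO, adjusted p = 0.00954) and Zfp560 (2.11 to 2.55 RPKM in Het, 5.16 and 5.56 RPKM in KO, adjusted p = 0.0181) and the scavenger receptor gene Colec12 (5.91 to 7.45 RPKM in Het, 13.2 and 15.7 RPKM in KO, adjusted p = 0.0213) rose by 2.15 to 2.30 times.

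Among the called genes 3 lie on the Y chromosome in RefSeq. Usp9y, a deubiquitinase gene, stood at 0.57, 0.48, 0.25 and 0.40 RPKM in Het and 6.69 and 8.07 RPKM in KO (2.56, SE 0.18, adjusted p = 1.3e-05), and WT had 0.07 RPKM. Gm10256 and Gm3376, predicted genes, were at 0 to 0.02 RPKM in Het and at 3.52 to 5.25 RPKM in KO. Of 8 tested genes in the Y-linked list Usp9y alone was called. All 8 differences were positive (as were 55.7% of all genes tested), from 0.19 for Eif2s3y upward. In 4 of the 8 both KO libraries lay above all Het libraries, against 9.01% of all genes. Only 6 of the 8 passed the filter without the XY KO libraries, and Usp9y was not among those 6. These counts are therefore a description and no support. Kdm5d, a histone demethylase gene, was at 9.53 to 15.4 RPKM in Het and 17.8 and 17.0 RPKM in KO (0.59, adjusted p = 0.615).

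Steroid-making genes of fetal Leydig cells, the hormone-producing somatic cells of the testis, were also among the called genes. Cyp17a1 stood at 0.13, 0, 0.16 and 0.87 RPKM in Het and 13.3 and 8.66 RPKM in KO (3.23, SE 0.26, adjusted p = 2.77e-05), and Cyp11a1 at 0.17, 0, 0.28 and 0 RPKM in Het and 12.7 and 4 RPKM in KO (2.90, SE 0.35, adjusted p = 6.95e-04). Hsd3b1, the renin gene Ren1 and the hormone gene Insl3 rose as well. Of 7 tested markers 5 were called (all genes: 0.614%), but Cyp17a1, Cyp11a1, Ren1 and Hsd3b1 entered the test only through the XY KO libraries, so this count too is a description. Star (0.76, adjusted p = 0.911) and Nr5a1 (0.26) were not. All 8 listed Leydig markers together summed to 4.95 to 7.85 RPKM in the Het libraries, to 71.0 and 29.9 RPKM in KO, to 21.8 RPKM in WT, 14.1 RPKM in C57BL/6 PGCs and 845.8 RPKM in soma. The KO sums equal 8.39% and 3.53% of the soma sum, the WT sum 2.58% and the Het sums 0.59% to 0.93%. No marker of the list was at 0 in all Het libraries or in both KO libraries. A soma-derived share in these libraries and RNA from the germ cells cannot be told apart in bulk RNA, nor can fewer cells with a transcript and less of it per cell.

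The sums of other somatic markers moved less. Sertoli markers summed to 59.4 and 16.4 RPKM in KO, within the Het range of 8.94 to 64.8 RPKM, and stromal markers to 30.2 and 26.1 RPKM, within 11.7 to 30.7 RPKM. Of the 7 stromal markers 2, Pdgfra and Nr2f2, had both KO libraries above every Het library (all genes: 9.01%), and neither was called. The 4 coelomic epithelium markers, Upk3b, Krt19, Wt1 and Lhx9, summed to 41.0 and 24.8 RPKM, above the Het range of 9 to 14.6 RPKM, with 124.8 RPKM in soma. For each of the 4 the KO libraries lay above every Het library and 0 were called, Upk3b coming nearest (1.69, adjusted p = 0.23). Erythroid markers summed to 19.2 RPKM in KO replicate 1 and 2.49 RPKM in KO replicate 2, against 1.24 to 8.86 RPKM in Het. Macrophage markers summed to 14.2 and 4.48 RPKM (Het 6.16 to 9.53 RPKM), endothelial markers to 41.1 RPKM in each KO library (30.1 to 44.5 RPKM) and pregranulosa markers to 9.23 and 9.61 RPKM (4.36 to 9.68 RPKM). Pecam1 made up most of the endothelial sum, at 44.9 RPKM in C57BL/6 PGCs and 3.77 RPKM in soma. Fst, the largest part of the pregranulosa sum in KO, stood at 2.25 and 1.13 RPKM there. Both sums thus hold RNA that was higher in PGCs than in soma. Kdr, at 20.4 RPKM in soma, had both KO libraries (6.23 and 4.46 RPKM) above every Het library (1.0 to 3.07 RPKM). It was the 1 such endothelial marker (all genes: 9.01%) and was not called. Over the called set, 18 of the 83 genes had a higher value in C57BL/6 soma than their KO mean, among them the 5 Leydig genes, Colec12, Gm98, Zbtb39, Cflar and Fndc4. In soma, 52 of the 83 were under 0.5 RPKM, and 28 stood at 1 RPKM or more, against 87.5% of all genes tested. For the counts of 18 and 52 the share over all genes was not computed. The part of somatic RNA in these results was not tested.

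**Figure D3:**
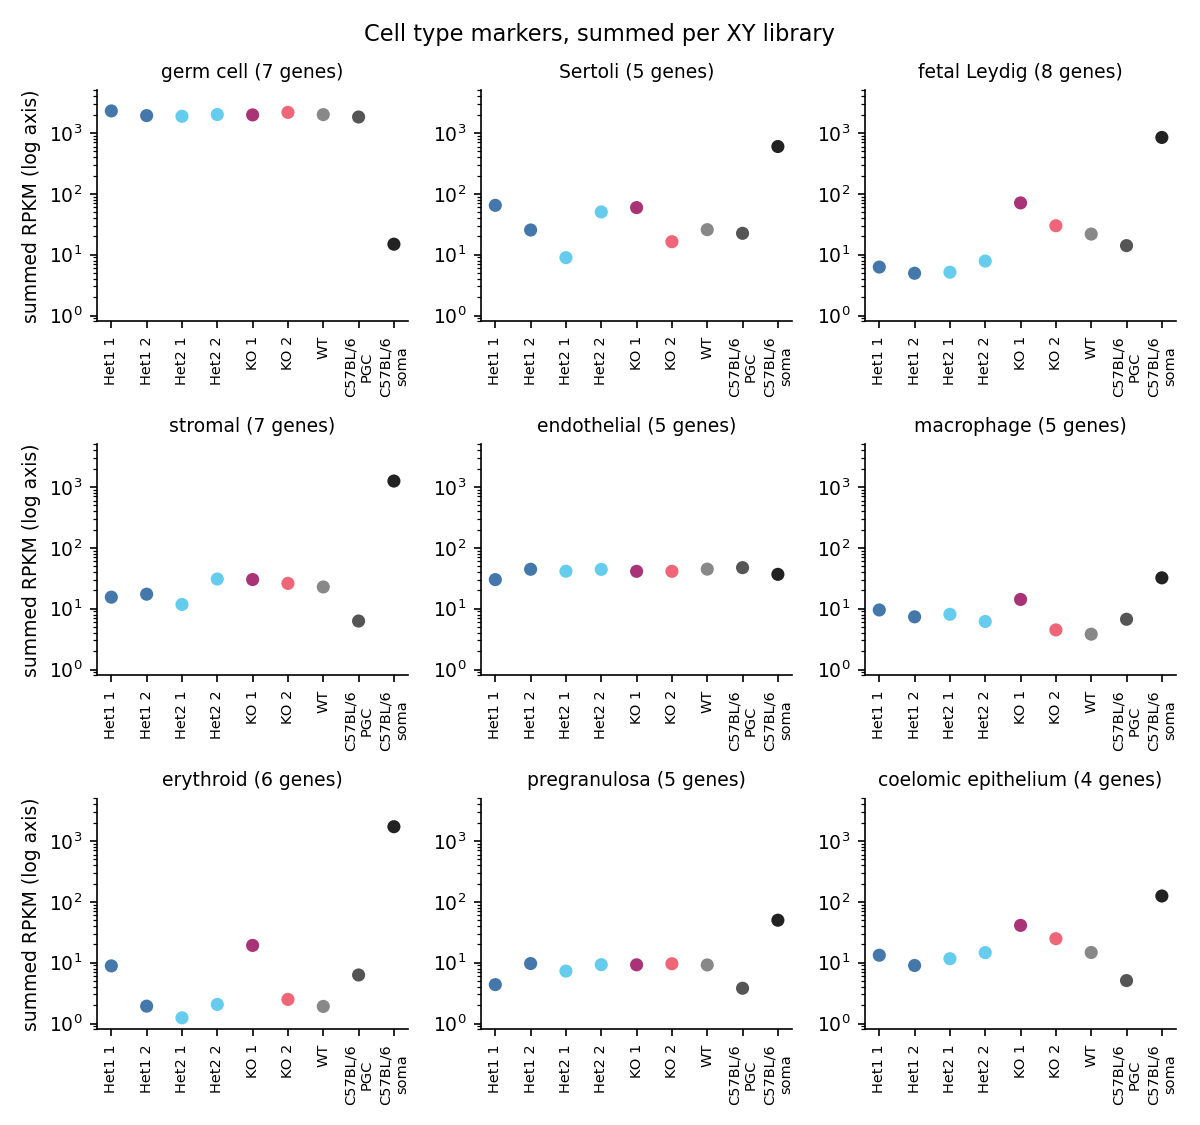
Each panel sums the RPKM of the markers of 1 cell type (log axis) in each XY library, in the order Het1, Het2, KO, WT, C57BL/6 PGC and C57BL/6 soma. The fetal Leydig sum is 71.0 and 29.9 RPKM in KO and at most 7.85 RPKM in Het, while the germ cell sum is similar in all PGC libraries.

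The list of germ cell identity genes held no called gene. Of 21 tested pluripotency and PGC genes 0 passed in either direction (all genes: 0.614% higher, 0 lower), with a median difference of -0.16 (all genes 0.03). With so small a share over all genes, 0 called does not set a list of this length apart. Alpl, the tissue-nonspecific alkaline phosphatase gene and a classical PGC marker, had the largest difference of the list (-1.24, SE 0.38, adjusted p = 0.409). It stood at 18.0 and 10.5 RPKM in Het1, at 30.9 and 23.5 RPKM in Het2, at 8.43 and 6.81 RPKM in KO and at 23.5 RPKM in WT. Both KO libraries were thus the lowest, and the Het1 libraries lay below the Het2 libraries. Het1 and Het2 differed in 0 of 13518 genes by limma (163 at an unadjusted p under 0.05).

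Of 24 tested germline genes that DNA methylation keeps silent in somatic cells 0 were called (all genes: 0.614%). Their median difference was 0.37, 19 differences were positive (as were 55.7% of all genes tested), and in 3 the KO libraries lay above every Het library (all genes: 9.01%). At an unadjusted p under 0.05 in limma, 6 were higher and 0 lower. Taf7l, a germ cell variant of a general transcription factor subunit, had the largest, at 20.4, 1.72, 2.28 and 1.72 RPKM in Het and 24.1 and 12.7 RPKM in KO (1.96, SE 0.98, adjusted p = 1). Het1 replicate 1 was close to KO here. The same library was also the highest Het library for Gtsf1, of the piRNA pathway that defends the germline against transposons, at 11.2 RPKM against 0.17 to 1.08 RPKM in the other 3, with 14.6 and 4.61 RPKM in KO (1.75, adjusted p = 1). The 17 tested piRNA genes had a median of 0.29, the 20 meiosis genes 0.10 with Tex15 the largest (1.12, adjusted p = 0.93), the 13 male fate genes 0.17 with Tdrd9 the largest (1.19), and the 7 oocyte genes 0.16 with Sohlh1 the largest (0.56). In each of these 4 lists 0 genes were called (all genes: 0.614%), which does not set such short lists apart.

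Of 19 tested imprinted genes 18 differences were positive (as were 55.7% of all genes tested), with a median of 0.36. In 7 of the 19 (all genes: 9.01%) the KO libraries lay above every Het library, and 0 were called (all genes: 0.614%). The largest was Zim1, a zinc finger gene, at 1.86, 2.49, 0.81 and 3.35 RPKM in Het and 6.48 and 4.75 RPKM in KO (1.14, SE 0.32, adjusted p = 0.289). Zim1 stood at 83.3 RPKM in soma.

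No listed gene of the silencing machinery was called (all genes: 0.614%), which does not set these short lists apart. Among 27 genes of H3K9 methylation, Setdb1 included, the median was -0.04 and 0 were called. The lowest difference of this list was that of Setdb1 itself (-0.64, above). The largest difference was in Zfp809, a KRAB zinc finger gene whose product recognises retroviral primer binding sites, at 5.32 to 11.2 RPKM in Het and 12.02 and 18.8 RPKM in KO (0.72, adjusted p = 1). Trim28 was at 429.9 to 662.4 RPKM in Het and at 637.4 and 425.2 RPKM in KO. Of the DNA methylation genes Dnmt3b, a de novo DNA methyltransferase gene, was at 3.09 to 4.18 RPKM in Het and at 6.41 and 5.60 RPKM in KO, without overlap but not called (0.63, adjusted p = 0.492). Phf19, a Polycomb accessory gene, was the largest of 17 Polycomb genes (-0.45, adjusted p = 0.665), and 2 of those 17 differences were positive, with a median of -0.05.

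In the lists of stress and sensing genes 0 were called (all genes: 0.614%). Some genes of related function outside these lists were picked from the called set after it was seen. They were Tlr2 (above), the apoptosis regulator Cflar (1.06, adjusted p = 0.0462), Trim5 (1.56, adjusted p = 0.0123) and Mndal (1.14, adjusted p = 0.0126). Tlr2 and Mndal entered the test only through the XY KO libraries, and the picks are a description and no support. Interferon and RNA sensing genes had a median of -0.14 over 11 tested, with Isg15 the largest at -0.63 (2.20 to 12.9 RPKM in Het, 2.51 and 2.16 RPKM in KO, adjusted p = 1). The p53 and apoptosis list had a median of 0.03 over 19 genes with Cdkn1a the largest (0.50), the proliferation list -0.09 over 20 with Ccnd2 the largest (0.32), and the early response and heat shock list 0.29 over 18 with Hspa1a the largest (0.88, adjusted p = 1). Housekeeping genes had a median of -0.05 over 12, B2m being the largest (0.52).

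The falls closest to the threshold were in Cox6b2, a testis-type subunit of cytochrome c oxidase, at 39.4, 32.0, 24.5 and 33.8 RPKM in Het and 19.5 and 15.5 RPKM in KO (-0.84, SE 0.19, adjusted p = 0.0931), in the uroplakin gene Upk2 (-0.98, adjusted p = 0.127) and in the mitochondrial sirtuin gene Sirt4 (-0.93, adjusted p = 0.168). Rhpn2 (-0.48), 3425401B19Rik (-0.85) and Abhd14a (-0.82) followed, with adjusted p between 0.215 and 0.234. In all 6, which were picked for their small p, both KO libraries lay below all Het libraries (all genes: 4.13%).

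The called genes differed in level between the KO replicates. Of the 83 genes 45 were higher in replicate 1, 17 of them more than 2-fold, and 3 were more than 2-fold higher in replicate 2. The same counts over all genes were not made, and a difference in response cannot be told apart from one between the libraries. Zscan4b, Zscan4c, Zscan4d, Zscan4e, Dub3 and, of the Leydig genes, Cyp11a1, Ren1, Hsd3b1 and Insl3 were more than 2-fold higher in replicate 1, and Cyp2b23 was so in replicate 2. Without KO replicate 1 limma called 29 genes and without KO replicate 2 it called 36. Still, 46 of the 83 stayed called whichever of the 6 libraries was left out, and 31 did under every alternative listed in the closing section. These 31 include 2010005H15Rik, Alox15, Alox12e, Dub3, Clec2g, Cml2, Zscan4d, Gabrr1, Usp9y, Plod2, Fndc4, C6, Pilrb1 and Pilrb2.

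In XX germ cells of the same cross (2 KO, 4 Het libraries), 54 genes were higher (0.399% of those tested) and 1 lower (0.0074%). The median XX difference of the 83 XY genes was 0.74, and 25 of them passed there. A test of the difference itself called 7 genes (0.0518%), each higher in XY: 2010005H15Rik (XX minus XY -4.66, adjusted p = 3.39e-05), Cyp17a1 (-3.04, adjusted p = 0.00451), Mmp10 (-2.21, adjusted p = 0.0305), Alox12e (-2.0, adjusted p = 0.0105) and the Y-linked Usp9y, Gm10256 and Gm3376, which XX cells lack, so that no difference in response can be read from them. Of the 7, only 2010005H15Rik passed the filter without the XY KO libraries, so the count and its direction are a description and no support. The count of 7 fell to 1 without KO replicate 1, to 2 without KO replicate 2 and to 0 with a pseudocount of 0.1. Gabrr1 went the other way, with 26.2 and 18.5 RPKM in XX KO, but that difference did not pass (1.61, adjusted p = 0.154).

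Endogenous retroviruses were described in the repeat table, which gives 1 RPKM per family over all its copies, analysed as log2(RPKM + 0.1). Of 528 families tested 13 were higher in KO (2.46%) and 0 lower (0 lower at an unadjusted p under 0.05), and all 13 are LTR elements. The share of LTR elements among the 528 was not computed, so that is a description. They comprise 6 of 15 IAP families, 4 of 9 MMERVK10C and RLTR10 families, 2 of 6 GLn families and MamGypLTR2c. IAP elements are the most active retroviruses of the mouse, and names ending in -int are internal, coding regions while the others are mostly LTRs. In XX cells 10 families were higher (1.89%), 9 of them among these 13.

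The whole repeat table was shifted in these data. The median difference of all 528 families was 0.29, against 0.03 for genes, and in 34.5% of families the KO libraries lay above every Het library, in 0.0% below. The shift differed between the replicate numbers: the median difference was 0.55 within replicate number 1 and 0.01 within number 2. The median family stood at 0.15 and 0.13 RPKM in the number 1 Het libraries and 0.26 RPKM in KO replicate 1, but at 0.214, 0.217 and 0.222 RPKM in the number 2 libraries in the order Het1, Het2, KO. The number 2 values are deposited with 3 decimals and the number 1 values with 2, and the part of this in the shift was not tested. Once the libraries were centred on their medians or quantile normalized, 4 families remained called: MMERVK10C-int, IAPEz-int, IAPLTR1_Mm and IAP-d-int. 

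MMERVK10C-int, the internal region of a retrovirus family with RLTR10 LTRs, had the largest difference. It stood at 0.12, 0.102, 0.10 and 0.099 RPKM in Het and at 3.24 and 0.725 RPKM in KO (3.02, SE 0.36, adjusted p = 1.09e-07). All 4 Het values were far below both KO values, and KO replicate 1 was over 4 times KO replicate 2. RLTR10C had the same pattern, at 0.10 to 0.143 RPKM in Het and 1.17 and 0.234 RPKM in KO (1.55, adjusted p = 0.00441). RLTR10B2 (1.05, adjusted p = 0.00437) and RLTR10B (0.94, adjusted p = 0.0099) were closer between the KO libraries, at 0.19 and 0.267 RPKM and at 0.22 and 0.245 RPKM, with at most 0.068 and 0.092 RPKM in Het.

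IAP families had their higher values in KO replicate 2. IAPEz-int stood at 0.49, 0.259, 0.22 and 0.29 RPKM in Het and 2.23 and 3.31 RPKM in KO (2.81, SE 0.34, adjusted p = 1.32e-07). The LTR IAPLTR1_Mm stood at 0.92, 0.501, 0.39 and 0.539 RPKM in Het and 3.32 and 4.32 RPKM in KO (2.55, SE 0.35, adjusted p = 1.04e-06). Het1 replicate 1 was the highest Het library for both. IAPLTR1a_Mm went from 0.07 to 0.131 RPKM in Het to 0.45 and 0.622 RPKM (1.59, adjusted p = 3.59e-04) and IAP-d-int from 0.04 to 0.05 RPKM to 0.20 and 0.235 RPKM (1.13, adjusted p = 3.59e-04). IAPEY3-int was the exception with KO replicate 1 higher (0.39 against 0.308 RPKM, 1.03, adjusted p = 0.00993). IAPLTR4_I was almost absent in Het, at 0 to 0.01 RPKM, and reached 0.05 and 0.143 RPKM (0.88, adjusted p = 0.0054). The median of the 15 IAP families was 0.55, with a lowest value of 0.27, where the median of all families was 0.29 and 521 of 528 were positive.

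**Figure D4:**
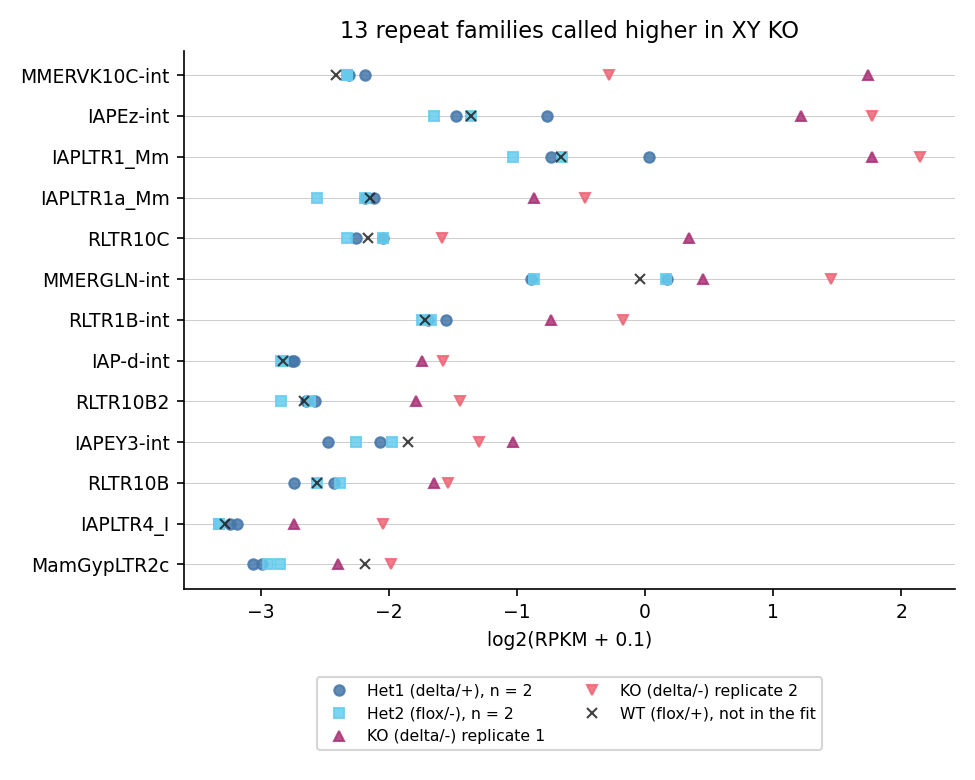
Each row is 1 of the 13 called repeat families and each symbol the log2(RPKM + 0.1) of 1 XY library, with colours as for the genes. MMERVK10C-int and RLTR10C have the widest gap between the KO replicates, and for MMERGLN-int the number 2 Het libraries lie close to KO replicate 1.

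The GLn family MMERGLN-int passed narrowly and needs its numbers side by side. It stood at 0.44 and 0.45 RPKM in the number 1 Het libraries and 1.27 RPKM in KO replicate 1, and at 1.03 and 1.02 RPKM in the number 2 Het libraries and 2.63 RPKM in KO replicate 2 (1.31, SE 0.38, adjusted p = 0.0496). Within number 1 the difference was 1.33 and within number 2 it was 1.28. Another GLn family, RLTR1B-int, was at 0.20 to 0.241 RPKM in Het and 0.50 and 0.79 RPKM in KO (1.21, adjusted p = 0.00993). MamGypLTR2c, an old LTR of 115 copies, stood at 0.02 to 0.039 RPKM in Het and 0.09 and 0.153 RPKM in KO, and WT, at 0.12 RPKM, lay between the KO libraries (0.77, adjusted p = 0.044).

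Many of these calls rested on single libraries. Without KO replicate 1 those of RLTR10C (0.58, adjusted p = 0.913), RLTR10B and IAPEY3-int were lost. Without KO replicate 2 those of MMERGLN-int (0.81, adjusted p = 0.56), MamGypLTR2c, RLTR1B-int, RLTR10B, RLTR10B2, IAPLTR1a_Mm and IAPEY3-int were. Leaving out Het1 replicate 1 ended the calls of MMERGLN-int, MamGypLTR2c, RLTR10B and IAPEY3-int, Het1 replicate 2 that of MamGypLTR2c and Het2 replicate 1 that of MMERGLN-int.

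Other families differed less or in 1 library. ETn and MusD families, 5 tested, had a median of 0.67, but of 0.08 within number 1 and 1.23 within number 2. ETnERV-int stood at 0.25, 0.419, 0.25 and 0.412 RPKM in Het and at 0.27 and 1.5 RPKM in KO (0.86, adjusted p = 0.389), so that only KO replicate 2 was above the controls. MLV families had a median of 0.74, with RLTR4_MM-int at 0.38 to 0.632 RPKM in Het and 1.14 and 0.795 RPKM in KO (0.95, adjusted p = 0.101). VL30 families had a median of 0.43, RLTR6_Mm being the largest (0.52). MERVL and MT2 (median 0.28), MaLR (0.29, MLT1J2 the largest at 0.51), LINE-1 (0.31, L1M3a the largest at 0.76) and SINE families (0.20, MIR the largest at 0.33) lay near the median of all families, and in each of these groups 0 families were called.

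**Figure D5:**
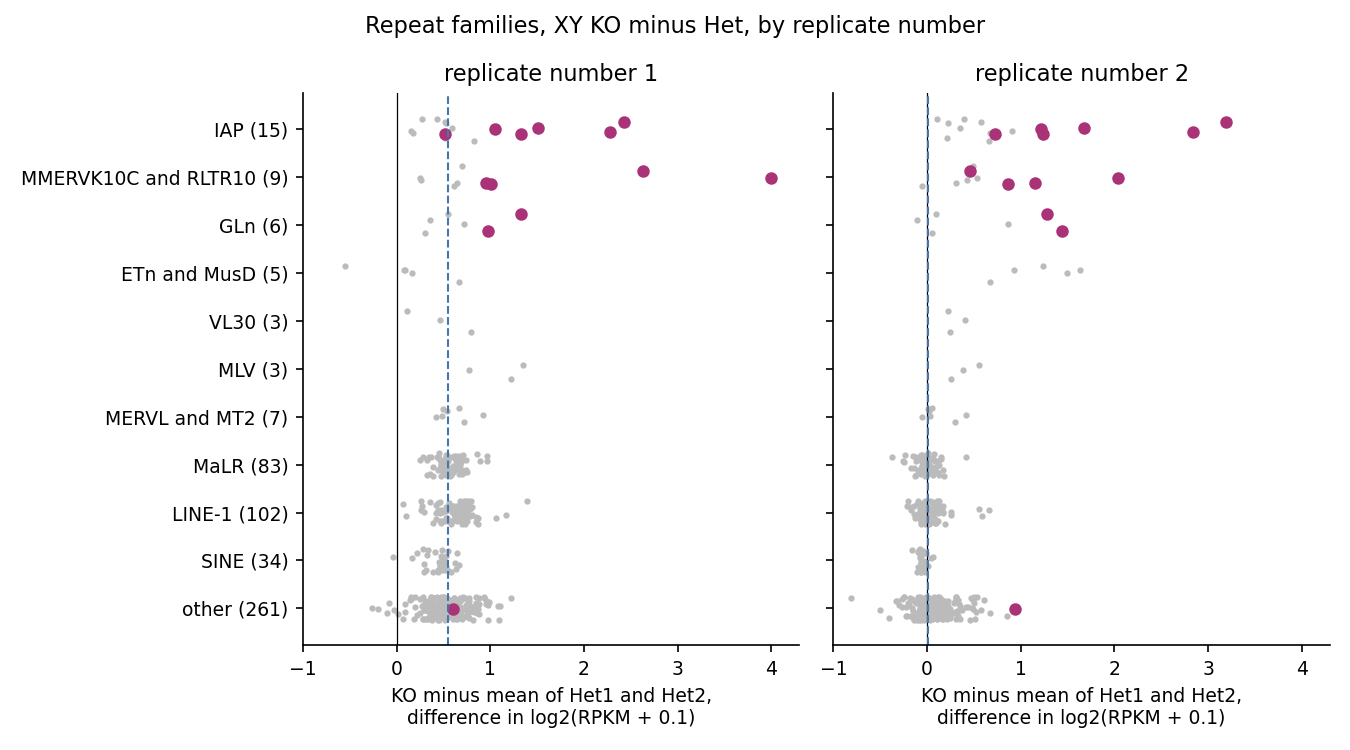
Each point is 1 of 528 repeat families, placed by its KO minus Het difference in log2(RPKM + 0.1) within replicate number 1 (left) and 2 (right), with the family group and the number of families on the y axis; purple marks the 13 called families and the dashed line the median of all families. The median is 0.55 on the left and 0.01 on the right, and the called families lie to the right of it in both panels, apart from IAPLTR4_I (0.52) on the left.

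Histone marks allow a look at the same features by another readout, with 1 ChIP library per genotype and hence no test. At 12 of the 13 called families H3K9me3 was lower in XY KO than in XY Het, against 21.6% of all 528 families. The ratio of KO to Het was 0.68 to 0.941 at those 12 and 1.64 at MamGypLTR2c, and the median over all families was 1.17. Among the called families the ratio was 0.785 for MMERVK10C-int (1.30 to 1.02 RPKM), 0.874 for IAPEz-int (1.59 to 1.39 RPKM), 0.749 for IAPLTR1_Mm (2.19 to 1.64 RPKM) and 0.68 for RLTR10C (1.69 to 1.15 RPKM). The signal was thus reduced and not gone. A reduction was not particular to the called families: of the 47 families at 1 RPKM or more of H3K9me3 in Het, 46 were lower in KO, of which 11 were called.

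At promoters, counted within 1 kb of the start, Cml2 and Gm7120 of the 83 had 1 RPKM or more of H3K9me3 in Het, which is 2.4% of them against 0.44% of genes tested. Cml2 went from 1.22 RPKM in Het to 0.17 RPKM in KO, and Gm7120, with 6.33 and 6.62 RPKM, kept its mark while its RNA rose from 0.38 to 4.24 RPKM in Het to 14.6 and 14.3 RPKM in KO. So 1 of 2 was at least 2-fold lower on RPKM + 0.1, against 43 of 298 such promoters overall (14.4%). At a minimum of 0.5 RPKM, 13 of the 83 entered (15.7%, against 4.64% of genes tested), and Cml2 and Zfp560 (0.845 to 0.262 RPKM) were 2-fold lower. Over the whole set 36 of 83 promoters (43.4%) were lower in KO, against 49.0% of genes tested.

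H3K27me3, the Polycomb mark, was lower in KO at 47 of the 83 promoters (56.6%, against 60.4% of genes tested). Of 24 called genes at 0.5 RPKM or more of it in Het 3 were at least 2-fold lower, and of 7 at 1 RPKM or more 0 were. The 3 were Cml2, Zfp560 and Plod2. The first and second of them went from 0.635 to 0.146 RPKM and from 0.631 to 0.203 RPKM. Plod2 went from 0.563 to 0.175 RPKM of H3K27me3 and from 0.26 to 0.142 RPKM of H3K9me3. At the most strongly raised gene, 2010005H15Rik, H3K9me3 was 0.119 RPKM in Het and 0.48 RPKM in KO, and at Alox15 it was 0.319 and 0.608 RPKM. Neither of those promoters had less H3K9me3 in KO, and reads near the start do not describe the mark at elements further away.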

How the data were processed

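RNA of sorted mouse gonadal cells was sequenced from paired-end libraries, per the labels' protocols. BWA and SAMtools were used on mm9, per the submitters' processing notes; versions, read counter and the treatment of multiply mapping reads are not stated in any source used here. All RNA and ChIP values are RPKM made by the authors, deposited per gene (22138 identifiers), per promoter and per repeat family (539). The repeat table also has a deposited number of elements (other unit, a plain count) and a deposited mappability fraction, which was not used. Low values showed no common step between libraries (at most 3.82% of low genes shared 1 ratio), so reads could not be recovered, and depth is unknown.

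limma 3.58.1 (R 4.3.3; lmFit, eBayes with trend, two-sided, Benjamini-Hochberg) was fitted to 12 libraries of both sexes as 4 group means, on log2(RPKM + 1) for genes at 1 RPKM or more in 2 libraries and log2(RPKM + 0.1) for families at 0.1 RPKM or more in 2; the scripts were tested on simulated data. The wild-type, C57BL/6 and ChIP libraries stayed outside the fit. The fit has no replicate block. Named genes are Setdb1, the called genes, the 25 with the largest difference and KO outside the Het range in full, the 6 falls of smallest p, and in each list the called or else the largest member; further members of a list were named after their values were seen. Families, members and lists were chosen with earlier results of these data known. Alternatives were pseudocount, filter, scaling, controls, sexes, block, trend and leaving out each XY library. Promoter sequences were aligned with Biopython 1.88.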

Additional observations from a re-analysis of the deposited data

Results flagged for a closer look

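In 7 cases a value was set apart because 1 of the 4 XY Het libraries lay far from the other 3 relative to their range. In 5 of them (2010005H15Rik, Dub3, Sectm1a, Gm7579 and Cdh19) the other 3 libraries were listed at 0, so that any value above 0 meets the criterion, and for MMERVK10C-int the other 3 lay between 0.099 and 0.102 RPKM. Het1 replicate 1 was that library for Dub3 (0.47 RPKM), Clec2g (1.56 RPKM), Gm7579 (0.31 RPKM), Cdh19 (0.15 RPKM) and, among repeats, MMERVK10C-int (0.12 RPKM). Het2 replicate 1 was that library for 2010005H15Rik (0.48 RPKM) and Sectm1a (0.05 RPKM). Each of these values lies below both KO libraries of the same gene or family.

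The KO effect differed between the sexes for 7 genes by the limma test of that difference, XX minus XY: 2010005H15Rik (-4.66), Cyp17a1 (-3.04), Usp9y (-2.56), Gm10256 (-2.44), Mmp10 (-2.21), Gm3376 (-2.18) and Alox12e (-2.0). Usp9y, Gm10256 and Gm3376 are Y-linked, so their values in XX cells carry no information on the response. All of the 7 but 2010005H15Rik entered the test only through the XY KO libraries, so their shared direction is no support.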

How the results depend on the processing

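The count of 83 higher genes was 184 without the filter, 42 with XY libraries alone, 53 with Het1 alone and 54 with Het2 alone as controls; leaving out 1 library gave 29 to 87. With the replicate block it was 95, of which 79 were among the 83; the labels give only shared numbers, though same-numbered XY libraries deviated together (correlations over genes 0.428, 0.565 and 0.354, over repeat families 0.592, 0.318 and 0.31). Lower genes numbered 0 to 1 when 1 library was left out, 1 with a pseudocount of 0.1, 1 without the filter and 1 with Het2 alone. The 13 higher families became 5 (of 12 tested) with the filter at RPKM 1, 26 with XY libraries alone, 4 by median centring, 4 by quantile normalization, 6 with Het1 alone, 8 with Het2 alone, 40 with the replicate block (all 13, and MERVL-int, RLTR4_MM-int and ETnERV-int among the others), and 5 to 13 when 1 library was left out. The 7 genes that differed between the sexes became 0 with a pseudocount of 0.1, 64 without the filter, 13 by median centring and 1 to 7 when 1 library was left out. Promoters of called genes at least 2-fold lower in H3K9me3 were 2 at a minimum of 0.5 RPKM instead of 1. The causes were not tested.

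With 1 library left out, differences that were not called changed sign: they ranged from -0.17 (without KO replicate 1) to 1.28 for Sohlh1, from -0.0056 (without Het1 replicate 1) to 0.50 for Ccnd2, from -1.89 to 0.49 (without KO replicate 2) for Cst9, from -0.66 (without KO replicate 1) to 1.88 for C1qb, from -0.44 (without KO replicate 1) to 2.72 for Hbb-b1 and from -0.20 (without KO replicate 2) to 1.91 for ETnERV-int. Of the 26 genes given in full (Setdb1 and the 25 largest), 380 of 400 recomputed differences kept their direction and side of the threshold and 20 were no longer past it. The 2 KO libraries and an unknown depth limit all values.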
